A study of Mus musculus with 11 samples.

Results

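A set of 7 genes of thermogenic fat, Ucp1, Cox8b, Cox7a1, Ppargc1a, Prdm16, Dio2 and Elovl3, were examined in the mouse mammary gland. They are a list of gene names, 7 of the 22196 genes that the count tables held. The rule for the list uses no measured value, but the list was drawn up with earlier results of these data known. All 7 had reads, but 3 of them (Cox8b, Prdm16 and Elovl3) were among the 12716 genes that passed the filter on low counts. RNA came from inguinal mammary glands collected 16 days after delivery, with the age label PND16.5, and the animals ate normal chow. The 6 Knockout glands had the genotype Tsc1-fl/fl; Adipoq-Cre-Tg/+ and the 5 Wild-Type glands had Tsc1-fl/fl; Adipoq-Cre-+/+, so both groups carried the floxed Tsc1 alleles and only the Knockout group carried the Cre transgene. Cre was driven by the adiponectin promoter, which is active in fat cells, while the RNA was that of the whole gland. The labels do not name separate litters, batches or days, so the p-values below measure the spread between these libraries.

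Thermogenic fat cells burn fuel to make heat. Noradrenaline acts on beta-adrenergic receptors, cAMP rises, lipolysis releases fatty acids, and UCP1 in the inner mitochondrial membrane lets protons return without making ATP. PRDM16 and PGC-1alpha (encoded by Ppargc1a) are transcriptional coregulators of this programme, DIO2 makes active thyroid hormone inside the cell, ELOVL3 lengthens fatty acids, and COX8B and COX7A1 are forms of cytochrome c oxidase subunits found in brown fat, heart and skeletal muscle. Inguinal fat of mice is the depot in which beige fat cells appear among white ones, and the mammary epithelium grows within that same depot. Tsc1 encodes a subunit of the complex that restrains the growth kinase mTORC1.

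Depth was 25817975 to 37894237 estimated reads per library, at which 1 read was worth 0.0222 to 0.0418 CPM (read counts scaled to a common library total, with trimmed mean of M values, TMM, factors). The targeted gene Tsc1 spanned 8.31 to 11.9 CPM over the 6 Knockout libraries and 9.55 to 12.2 CPM over the 5 of Wild-Type, which overlapped (edgeR log2 fold change -0.09, adjusted p = 0.772). Its counts cover the whole coding sequence and cells that do not express Cre, so they do not check the labels. Markers of the labelled tissue were present, since all 8 luminal and secretory epithelium markers and all 12 adipocyte markers had reads. The epithelial markers summed to 318810 to 447410 CPM in Knockout glands, against 399980 to 558440 CPM in the others (log2 difference -0.27, exact two-sided permutation p = 0.0390), with the keratin Krt8 at a log2 fold change of 0.48 and the milk protein gene Wap at -0.32. The adipocyte markers summed to 1846 to 2587 CPM against 1574 to 2147 CPM (log2 difference 0.30, exact two-sided permutation p = 0.0346). In summed TPM that difference was 0.65 (exact permutation p = 0.00433), and in CPM its p rose to between 0.0556 and 0.0762 when any one of Knockout 1, 3, 4 and 5 and Wild-Type 3, 4 and 5 was left out. B cell markers summed to 0.808 to 12.8 CPM against 1.86 to 63.8 CPM (exact two-sided permutation p = 0.0563), and their most different members were Cd37 at a log2 fold change of -2.62 and Cd79b at -2.92. In whole-gland RNA, fewer cells of a type and less RNA per cell cannot be told apart.

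No thermogenic gene passed the test between genotypes. With edgeR's quasi-likelihood test at an adjusted p of 0.05 over all genes tested, 0 of the 3 tested members were called, against 7 of 12716 genes (0.055%). At an unadjusted p under 0.05, 1 of the 3, Cox8b, was below the line, against 12.4% of all genes (6.31% below it and higher in Knockout), and 0 were called by DESeq2 (6 members with an adjusted p) or limma-voom (3 tested). The 3 tested members had a median log2 fold change of -0.02 with 1 higher and 2 lower, and all tested genes had a median of -0.01 with 48.3% higher. CPM of the groups overlapped for every one of the 7 members, whereas it did not overlap for 1.32% of the genes tested.

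**Figure D1:**
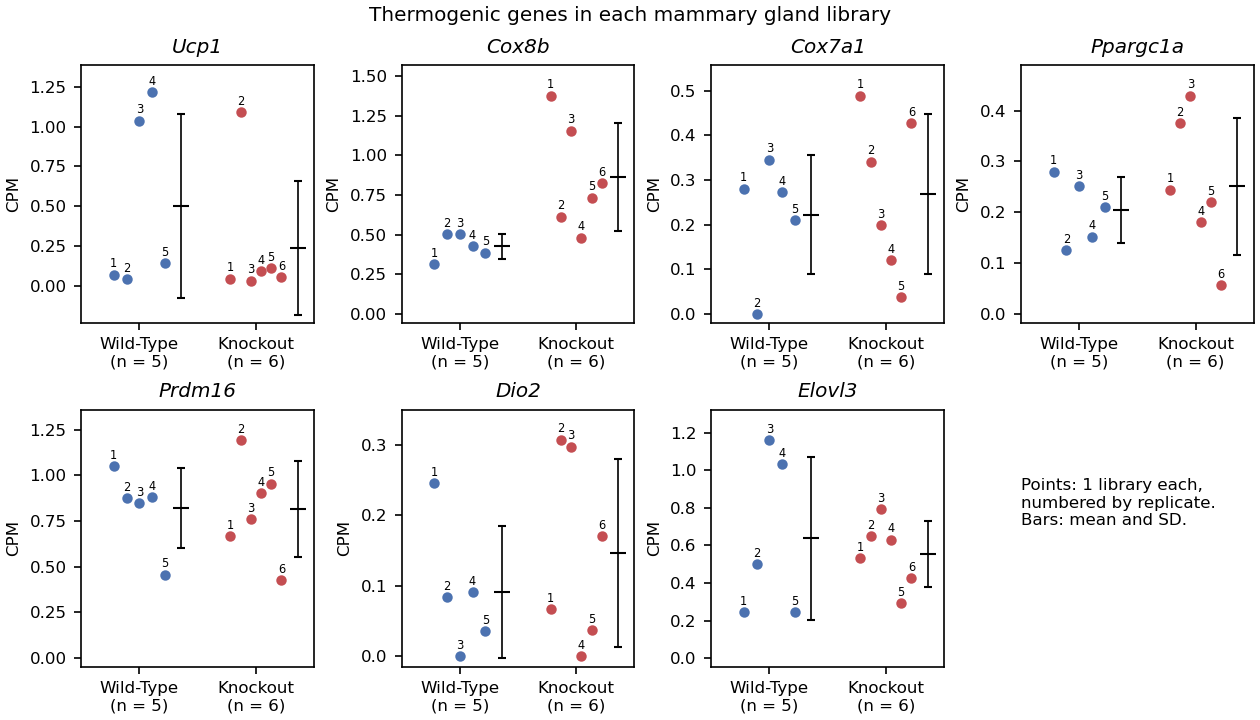
CPM (vertical axes, TMM-scaled) of the 7 thermogenic genes in each library, with Wild-Type (n = 5) on the left and Knockout (n = 6) on the right of each panel; points are libraries numbered by replicate, and bars are the mean and SD. Cox8b is above the highest Wild-Type value of 0.503 CPM in 5 of 6 Knockout libraries, and Ucp1 is above 1 CPM in 3 libraries, 2 of them Wild-Type.

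The stretches upstream of Ucp1 and Cox8b are shown because these are the 2 members whose values stood out, Ucp1 between libraries and Cox8b between genotypes. Both are the 250 bases before the RefSeq start of the gene in GRCm38.p6, written 5′ to 3′ on the strand of the gene. In the Ucp1 sequence, at chr8:83290098-83290347 on the plus strand, the capitals mark a half-site of the cAMP response element (TGACG), the sequence through which CREB and ATF factors act in the textbook account of adrenergic induction. In the Cox8b sequence, at chr7:140900447-140900696 on the minus strand, the capitals mark an E-box (CANNTG), the letters that myogenic and other helix-loop-helix factors bind.
Ucp1: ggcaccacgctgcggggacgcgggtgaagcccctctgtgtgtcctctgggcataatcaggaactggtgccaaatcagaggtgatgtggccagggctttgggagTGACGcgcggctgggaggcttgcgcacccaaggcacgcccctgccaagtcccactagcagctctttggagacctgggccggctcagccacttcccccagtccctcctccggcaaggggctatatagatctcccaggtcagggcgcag
Cox8b: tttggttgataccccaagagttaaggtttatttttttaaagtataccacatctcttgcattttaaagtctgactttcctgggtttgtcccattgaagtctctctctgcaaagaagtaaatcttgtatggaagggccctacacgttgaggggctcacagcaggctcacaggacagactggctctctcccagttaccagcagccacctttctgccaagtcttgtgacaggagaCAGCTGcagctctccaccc

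Of the 7 members, 6 had an entry in the RefSeq promoter table, all but Elovl3, and 3 motifs were searched on both strands of the 250 bases. TGACG was found at 147 bases before the start in Ucp1, at 95 and 92 bases in Dio2 and at 49 bases in Ppargc1a, and in 17.8% of the 32851 promoters of the table. CANNTG was found 6 times in Ppargc1a and once each in Cox8b and Cox7a1, and in 66.2% of all promoters. The nuclear receptor half-site AGGTCA was found in Ucp1, 14 bases before the start, and in 14.0% of all promoters. None of the 3 was found in Prdm16, which says only that these letters are not in that window. These matches describe sequence and are not evidence of binding.

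Ucp1, the proton channel that defines thermogenic fat, was close to the limit of detection in most glands and present in a few. The gene (ENSMUSG00000031710) lies at chr8:83290352-83298452 on the plus strand of GRCm38. Its CPM was 0.0700, 0.0418, 1.04, 1.21 and 0.140 in Wild-Type 1 to 5, and its lowest, median and highest CPM in the 6 Knockout libraries were 0.0330, 0.0736 and 1.09. The high values belonged to Wild-Type 3, Wild-Type 4 and Knockout 2, with 33, 40 and 32 reads, while the other 8 libraries had 1 to 4 reads. The lowest of the 3 high values was 7.38 times the highest of the others, with exact 95% Poisson intervals of 21.9 to 45.2 reads for Knockout 2 and 1.09 to 10.2 reads for Wild-Type 5, which cover counting error only. The high libraries were picked out by these values, and both genotypes are among them and among the rest.

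Without the filter on low counts, which Ucp1 did not pass, its log2 fold change in Knockout was -1.14 with an SE of 1.05 and a 95% interval of -3.46 to 1.17 (edgeR adjusted p = 0.664). Single libraries set that value: it was -2.89 without Knockout 2 (edgeR adjusted p = 0.355) and -0.51 without Wild-Type 4. The adipocyte markers were low in the libraries where Ucp1 was high. Their summed level was 1846 CPM in Knockout 2, the lowest of its group, and 1574 and 1652 CPM in Wild-Type 3 and Wild-Type 4, the lowest of theirs. With the adipocyte level added as a covariate, an alternative chosen after the data were seen, the Ucp1 log2 fold change was 1.96 (edgeR adjusted p = 0.508), a change of direction. The part of the adipocyte content in the Ucp1 values was not tested.

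Cox8b, the muscle-type form of oxidase subunit VIII, was the member with the smallest p between the genotypes and had a ratio of mean CPM of 2.03, without passing the adjusted test. The gene (ENSMUSG00000025488, chr7:140898945-140900446, minus strand) had 242 reads over the 11 libraries. Its CPM was 0.315, 0.501, 0.503, 0.425 and 0.386 in Wild-Type 1 to 5, and its lowest, median and highest CPM in Knockout were 0.481, 0.780 and 1.38. In Knockout, 5 of the 6 libraries were above every Wild-Type library, and only Knockout 4 fell within the Wild-Type range. Mean Cox8b over the Knockout libraries was 0.865 ± 0.339 CPM (SD, n = 6), and over the Wild-Type libraries 0.426 ± 0.0797 CPM (SD, n = 5).

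For Cox8b the log2 fold change was 1.02 with an SE of 0.30 and a 95% interval of 0.38 to 1.67 (edgeR adjusted p = 0.269; unadjusted 0.00433). It was 0.84 without Knockout 1 and lay between 0.84 and 1.15 over the 11 fits that left out 1 library each, with edgeR adjusted p from 0.221 to 0.457. The summed adipocyte level was also higher in Knockout, and whether its correlation with Cox8b passed a test depended on the scale. With their level as a covariate the Cox8b log2 fold change was 0.76 (edgeR adjusted p = 0.583; unadjusted 0.109), and over the 11 libraries Cox8b and the summed adipocyte level had a Pearson r of 0.60 in log2 CPM (permutation p = 0.0516, adjusted over 8 relations 0.342; Spearman rho = 0.42, permutation p = 0.202). Without Wild-Type 3 and Wild-Type 4, the libraries farthest from the median adipocyte level, r was 0.61. In log2 TPM, where most genes were higher in Knockout, r over the 11 libraries was 0.86 (unadjusted permutation p = 0.00071). In log2 CPM it was 0.70 without Knockout 4 (permutation p = 0.0251) and 0.73 without Wild-Type 1 (permutation p = 0.0178). Within the 6 Knockout libraries it was 0.54 (exact permutation p = 0.261). The part of adipocyte content in the Cox8b difference was not tested beyond these values.

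TPM values, which are scaled to the same total in each library and also divide by transcript length, place the genes on 1 scale of level. Cox8b was at 3.18 to 5.55 TPM in Wild-Type and 5.72 to 23.2 TPM in Knockout, a ratio of means of 2.52 and no overlap, by a narrow margin. How many of all tested genes did not overlap in TPM was not counted, and the 1.32% given above is for CPM. TPM was not scaled by TMM, and the median log2 difference of all tested genes between genotypes was 0.21 on that scale, against -0.01 in the edgeR fit, with 10729 of the 12716 genes higher in Knockout. Directions below are those of the TMM scale, and small negative fold changes such as those of Prdm16 and Elovl3 (0.08 and 0.17 in log2 TPM plus 0.1) change sign between the scales. Cox8b differed by 1.21 in log2 TPM plus 0.1 and kept its direction. The coding sequence of Cox8b is 213 bases, and its effective length in the tables was 27 to 29 bases, so that each read weighs heavily in its TPM. With effective lengths as offsets, the log2 fold change of Cox8b was 1.06.

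Cox8a, the form of the same subunit used in most tissues, gives a comparison within each library that no scaling between libraries affects. Its effective length was 26 to 28 bases, close to that of Cox8b, and its level was 245 to 392 TPM. The share of Cox8b in the summed TPM of Cox8a and Cox8b averaged 1.58% ± 0.409 (SD, n = 5) over Wild-Type libraries against 3.55% ± 1.43 (SD, n = 6) over Knockout libraries. The ranges, 1.11% to 1.98% and 2.18% to 6.20%, did not overlap. Knockout 1 had the highest share and Wild-Type 5 the lowest. The share was chosen after the values had been seen and is given without a test. How often such shares do not overlap for other gene pairs was not counted. In CPM, Cox8a itself had a log2 fold change of -0.20 (edgeR adjusted p = 0.419), while its mean TPM was 313 in Knockout and 302 in Wild-Type, so its direction depended on the scale.

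**Figure D2:**
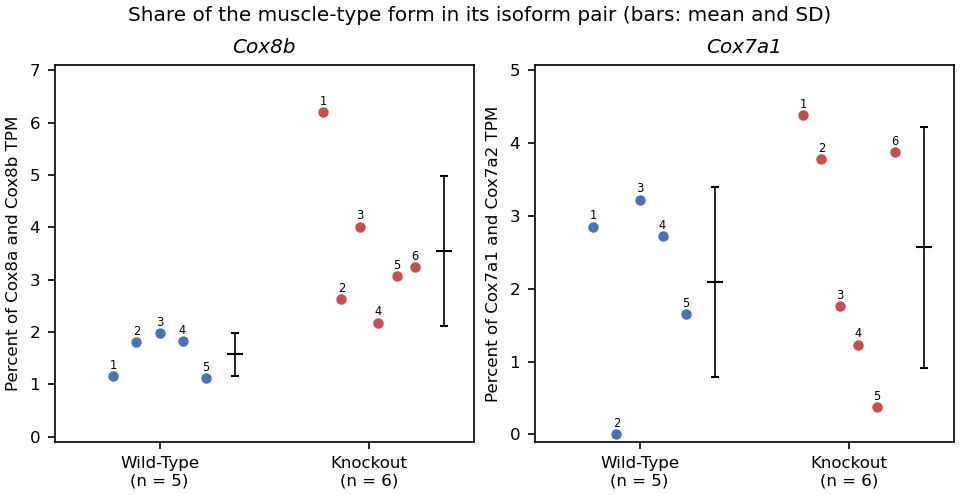
Percent of the TPM of an isoform pair held by the muscle-type form (vertical axes), Cox8b with Cox8a on the left and Cox7a1 with Cox7a2 on the right, in each library; points are libraries numbered by replicate, and bars are the mean and SD. The Cox8b share is 2.18% to 6.20% in Knockout against 1.11% to 1.98% in Wild-Type, and the Cox7a1 shares of the genotypes overlap.

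Cox7a1, the muscle-type form of subunit VIIa, did not separate the genotypes. The gene (ENSMUSG00000074218, chr7:30184144-30186078, plus strand) had 92 reads in all. Its CPM was 0.280, 0, 0.346, 0.273 and 0.211 in Wild-Type 1 to 5, and its lowest, median and highest CPM in Knockout were 0.0367, 0.270 and 0.489. Wild-Type 2 had no read, which allows up to 0.125 CPM (3 counts), and Knockout 5 had 1 read. The log2 fold change without the filter was 0.27 with an SE of 0.63 and a 95% interval of -1.08 to 1.62 (edgeR adjusted p = 0.893). It was 0.01 without Knockout 1 and -0.02 without Wild-Type 2. The share of Cox7a1 in the summed TPM of Cox7a1 and Cox7a2 averaged 2.57% ± 1.66 (SD, n = 6) over Knockout libraries against 2.09% ± 1.31 (SD, n = 5) over Wild-Type libraries.

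Both genes are also expressed by skeletal muscle, which lies under the inguinal gland, so they were set against 18 muscle markers. The summed muscle level varied 914-fold between libraries. It was 273, 29.1, 3.49, 198 and 27.7 CPM in Wild-Type 1 to 5, and its lowest, median and highest values in Knockout were 3.04, 35.4 and 2776 CPM. The highest belonged to Knockout 1, and Knockout 2 followed with 420 CPM. The log2 difference of 0.40 between genotypes gave an exact two-sided permutation p of 0.844. Its sign changed without Knockout 1 (-0.71), without Knockout 2 (-0.17) and without Wild-Type 3 (-0.50).

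The fast myosin gene Myh4 showed the spread most plainly, at 51680 reads in Knockout 1, 2184 in Wild-Type 1, and 0 in Knockout 4 and Wild-Type 3. Ckm, the creatine kinase of muscle, ran from 0.188 CPM in Wild-Type 3 to 299 CPM in Knockout 1. Acta1, skeletal alpha-actin, ran from 0.157 to 350.01 CPM over the same libraries. All 18 markers had reads and were tested, and 0 passed in edgeR or at an unadjusted p under 0.05, while all 18 had a positive log2 fold change (median 2.21). That direction rested on 1 library, since without Knockout 1 the mean CPM was higher in Knockout for 6 of the 18. Myh4 (2.71, SE 2.23), Acta1 (2.33, SE 1.79), Ckm (2.17, SE 1.70) and Tnnt3 (2.10, SE 1.68), which encodes fast troponin T, all carried SEs of more than 1.5 on the log2 scale.

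Cox8b and the muscle markers had no correlation that passed a test, and several libraries were high in one and low in the other. Knockout 3 and Knockout 5 had muscle levels of 18.8 and 10.1 CPM and Cox8b at 1.16 and 0.734 CPM. Wild-Type 1 and Wild-Type 4 had muscle levels of 273 and 198 CPM and Cox8b at 0.315 and 0.425 CPM. The highest muscle level and the highest Cox8b value, 62 reads, were both in Knockout 1. Over the 11 libraries r was 0.25 (permutation p = 0.459, adjusted over 8 relations 0.918; rho = 0.10, permutation p = 0.777), and without Knockout 1 and Knockout 2, the libraries farthest from the median muscle level, it was -0.31. Within the 6 Knockout libraries it was 0.57 (exact permutation p = 0.240). With the muscle level as a covariate the log2 fold change of Cox8b was 0.97 (edgeR adjusted p = 0.273), against 1.02 without it.

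The correlation of Cox7a1 with the muscle markers was larger in value and did not pass the test either, and the difference between the genes was not tested. Over the 11 libraries r was 0.48 (permutation p = 0.135, adjusted over 8 relations 0.359; rho = 0.55, permutation p = 0.0880), and without Knockout 1 and Knockout 2 it was 0.26. Within the 6 Knockout libraries it was 0.77 (exact permutation p = 0.0722). Wild-Type 3 had 11 reads of Cox7a1 with no read of Myh4 and a muscle level of 3.49 CPM, whereas Wild-Type 2 had no read of Cox7a1 at a muscle level of 29.1 CPM. With the muscle level as a covariate the log2 fold change of Cox7a1 was 0.04.

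**Figure D3:**
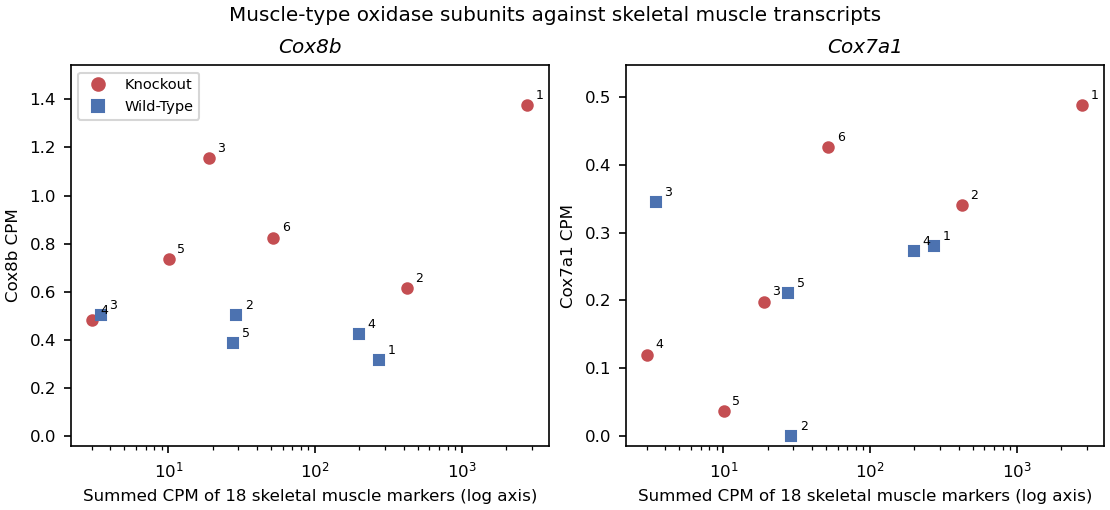
CPM of Cox8b (left) and Cox7a1 (right) against the summed CPM of 18 skeletal muscle markers (horizontal log axis), with 1 point per library, circles for Knockout (n = 6) and squares for Wild-Type (n = 5), numbered by replicate. Knockout 1, with 2776 CPM of muscle markers, has the highest value of both genes, and Knockout 3 has Cox8b at 1.16 CPM beside a muscle level of 18.8 CPM.

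The muscle-type mitochondrial genes Cox6a2 and Ckmt2 had reads mainly where the markers were high, and were picked out after their values were seen. Cox6a2, the muscle form of oxidase subunit VIa, had 61 reads in Knockout 1, 2 to 4 reads in Knockout 2, Knockout 6, Wild-Type 1 and Wild-Type 4, and none in the other 6 libraries. Ckmt2, the mitochondrial creatine kinase of muscle, had 162 reads in Knockout 1, 52 in Knockout 2 and none in Knockout 4, Knockout 5, Wild-Type 3 and Wild-Type 5. In Knockout 3, Cox6a2 had no read, Ckmt2 had 2 and Cox8b had 35.

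Ppargc1a, the coactivator that drives mitochondrial biogenesis, was detected in every library at very low level. The gene (ENSMUSG00000029167, chr5:51454250-51567726, minus strand) had 79 reads in all. Its CPM was 0.280, 0.125, 0.251, 0.152 and 0.211 in Wild-Type 1 to 5, and its lowest, median and highest CPM in Knockout were 0.0569, 0.232 and 0.429. The Knockout libraries spanned the Wild-Type range on both sides, with Knockout 6 below it and Knockout 2 and 3 above it. The log2 fold change without the filter was 0.28 with an SE of 0.46 and a 95% interval of -0.71 to 1.26 (edgeR adjusted p = 0.832). It lay between 0.06 and 0.49 over the 11 fits that left out 1 library each. In each library all of its reads were assigned to a single coding form, Ppargc1a-203 in 8 libraries and Ppargc1a-205 in 3. At 2 to 13 reads a library, that assignment describes the quantification and gives no measure of form use.

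Prdm16, the coregulator that keeps precursor cells in the brown lineage, had the lowest coefficient of variation of the members. The gene (ENSMUSG00000039410, chr4:154316125-154636873, minus strand) had 279 reads. Its CPM was 1.05, 0.877, 0.848, 0.881 and 0.456 in Wild-Type 1 to 5, and its lowest, median and highest CPM in Knockout were 0.427, 0.831 and 1.19. The coefficient of variation over the 11 libraries was 28.3%, against 46.5% to 137% for the other members. Prdm16 also had the most reads of the members, and counting error raises this measure where reads are few. The part of counting error in the ranking was not tested. The group means were 0.817 ± 0.263 (SD, n = 6) and 0.823 ± 0.220 CPM (SD, n = 5). Its log2 fold change was -0.02 with an SE of 0.28 and a 95% interval of -0.62 to 0.58 (edgeR adjusted p = 0.987).

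Dio2, the deiodinase that turns T4 into active T3, was at the floor of detection. The gene (ENSMUSG00000007682, chr12:90724552-90738438, minus strand) had 41 reads, no library had more than 9, and Knockout 4 and Wild-Type 3 had none. Its CPM was 0.245, 0.0835, 0, 0.0911 and 0.0351 in Wild-Type 1 to 5, and its lowest, median and highest CPM in Knockout were 0, 0.119 and 0.307. The log2 fold change without the filter was 0.65 with an SE of 0.86 and a 95% interval of -1.19 to 2.50 (edgeR adjusted p = 0.779). With 1 library left out it ran from 0.32 (without Knockout 2) to 1.42 (without Wild-Type 1). No difference between genotypes was detected, and the interval is wide. Against the muscle level r was 0.54 (permutation p = 0.0854; rho = 0.63, permutation p = 0.0401), with both p-values above 0.3 after adjustment over 8 relations, at 0.342 and 0.321. Without Knockout 1 and Knockout 2 this r was 0.71 (unadjusted permutation p = 0.0359), and within the 6 Knockout libraries 0.38 (exact permutation p = 0.446).

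Elovl3, an elongase of very long fatty acids that cold induces in brown fat, varied most among the Wild-Type glands. The gene (ENSMUSG00000038754, chr19:46131897-46135694, plus strand) had 208 reads and overlaps Pitx3 on the opposite strand, which had 7 reads in all. Its CPM was 0.245, 0.501, 1.16, 1.03 and 0.246 in Wild-Type 1 to 5, and its lowest, median and highest CPM in Knockout were 0.294, 0.582 and 0.793. The Knockout libraries all lay within the Wild-Type range. Wild-Type 3 and 4, the highest for Elovl3, were also high for Ucp1, but Knockout 2, the third library high for Ucp1, had Elovl3 at 0.648 CPM, within the range of its group. The log2 fold change was -0.22 with an SE of 0.42 and a 95% interval of -1.13 to 0.70 (edgeR adjusted p = 0.865).

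How the 7 genes varied together is given as a description, with no test. Among the 21 pairs, Pearson's r of log2 CPM over the 11 libraries ran from -0.35 for Ucp1 with Cox8b to 0.57 for Ucp1 with Elovl3, and the next highest was 0.52 for Ppargc1a with Prdm16. The genes whose pattern was nearest to each tested member, as a description over 11 libraries that share depth and cell content, were Fam69b (r = 0.89), Calm2 (0.86) and Maob (0.86) for Cox8b. For Prdm16 they were Ptk2 (0.91), Cuedc1 (0.86) and Mmrn2 (0.83). For Elovl3 they were Fermt2 (0.91), Ift81 (0.90) and Snapc2 (0.89). Among the members not tested, Ucp1 was nearest to Rad18 (0.92), Cox7a1 to Fam161a (0.92), Ppargc1a to Fam219b (0.89) and Dio2 to Lonrf1 (0.86).

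Ucp1, Cox8b, Cox7a1, Ppargc1a and Prdm16 each stood below a relative in level per transcript length. Mean Cox8a was 308 TPM and mean Cox8b 8.64 TPM, a ratio of 35.7. Mean Cox7a2 was 89.2 TPM against 2.27 TPM for Cox7a1, and the related Cox7a2l was at 76.6 TPM. Ucp2, a mitochondrial carrier of the same family, was at 432 TPM and Ucp3 at 62.1 TPM, against 0.206 TPM for Ucp1. Ucp2 and Ucp3 exceeded Ucp1 in 11 of 11 libraries.

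In TPM the regulators showed the same order. Ppargc1b, the paralog of Ppargc1a, was at 0.381 TPM against 0.0397 TPM, and the third member of that family, Pprc1, was at 1.53 TPM. Mecom, the paralog of Prdm16, was at 0.173 TPM against 0.0780 TPM and was higher in 11 of 11 libraries. In reads the genes were alike, at 280 for Mecom and 279 for Prdm16, with a mean of 0.82 CPM each. Their order in TPM therefore rests on the lengths of the forms to which the reads were assigned. Among the elongases, Elovl5 (123 TPM), Elovl1 (47.6 TPM), Elovl7 (4.34 TPM) and Elovl6 (3.43 TPM) were above Elovl3 (0.396 TPM), while Elovl4 (0.0859 TPM) and Elovl2 (0.0018 TPM) were below it. Dio3, which inactivates thyroid hormone, had 7 reads in all, no more than 2 in any library and none in Wild-Type. Its log2 fold change without the filter was 3.28 with an SE of 1.25 (edgeR adjusted p = 0.410), on reads at the floor of detection. Of the 17 paralogs and partner isoforms, 12 were tested and 0 passed, with a median log2 fold change of -0.01. One of these 12 had an unadjusted p under 0.05, Elovl7 (log2 fold change 0.35, SE 0.13, edgeR adjusted p = 0.341).

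**Figure D4:**
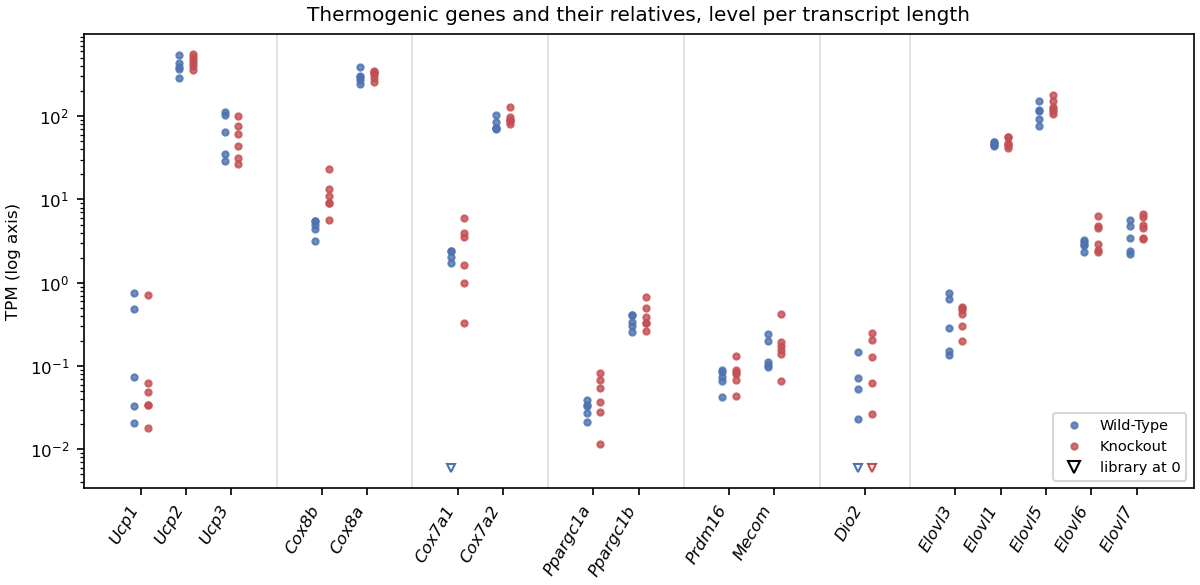
TPM (vertical log axis) of each thermogenic gene beside its relatives, with 1 point per library, Wild-Type (n = 5) on the left and Knockout (n = 6) on the right of each gene, and open triangles at the lower edge for genotypes that have a library at 0. Cox8a exceeds Cox8b and Cox7a2 exceeds Cox7a1 in 11 of 11 libraries, and Ucp2 and Ucp3 lie above Ucp1 in each.

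The wider thermogenic programme was tested in the same fit, and none of its genes passed. Of 20 transcription factors and coregulators of brown fat, 13 were tested, 8 higher and 5 lower in Knockout, with a median log2 fold change of 0.01. The smallest p-values were those of Esrra, a nuclear receptor that works with PGC-1alpha on mitochondrial genes (log2 fold change -0.45, SE 0.18, edgeR adjusted p = 0.363), and Ppara, the receptor that drives fatty acid oxidation (0.53, SE 0.23, adjusted p = 0.384). Esrra shares its locus with Trmt112 on the opposite strand, which had 2952 reads. Among the lineage markers of brown and beige fat cells in this list, named after their values were seen, Zic1 had 1 read in all and Tmem26 had 3, while Cited1 had 587, Tbx15 215, Ebf2 106, Tbx1 95, Lhx8 70 and Tnfrsf9 35.

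Of 17 genes of adrenergic and thyroid signalling, 16 were tested, 11 higher and 5 lower, with a median of 0.04. Adrb3, the beta-adrenergic receptor of fat cells, averaged 9.71 ± 2.18 CPM among Knockout glands (SD, n = 6) against 7.09 ± 1.23 CPM among the Wild-Type glands (SD, n = 5; log2 fold change 0.46, SE 0.16, edgeR adjusted p = 0.313). Knockout and Wild-Type ranges overlapped for it.

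Of 22 effectors of heat production and fuel supply, 20 were tested, 7 higher and 13 lower, with a median of -0.12. The smallest p-values were those of Cidea (log2 fold change -0.40, SE 0.12, edgeR adjusted p = 0.274) and Gk, glycerol kinase (-0.19, SE 0.10, adjusted p = 0.480), which turned positive (0.04) in log2 TPM plus 0.1. Cidea, a lipid droplet protein counted among brown fat markers, is also made by the lactating mammary epithelium for milk fat secretion, and it stood at 2064 TPM where Ucp1 stood at 0.206 TPM. The summed epithelial level was also lower in Knockout in CPM, but its markers were divided: Csn2 (-0.27), Csn1s1 (-0.24), Wap, Lalba and Elf5 had negative log2 fold changes, while Krt8, Krt18 (0.31) and Epcam (0.25) had positive ones, and none of the 8 passed. Their part in the value of Cidea was not tested. Fabp3 and Thrsp, also genes of both brown fat and the milk-making epithelium, were at 6736 and 2272 TPM, and were named after their values were seen.

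Of 10 factors secreted by brown fat, 7 were tested, 4 higher and 3 lower, with a median of 0.18. Epdr1, a secreted factor of beige and brown fat cells, was at 0.439 ± 0.197 CPM over the 6 Knockout libraries (SD, n = 6) and 0.183 ± 0.107 CPM over those of Wild-Type (SD, n = 5), on 3 to 36 reads a library (log2 fold change 1.28, SE 0.43, edgeR adjusted p = 0.300). Slit2, whose fragment acts on fat cells, was less different (0.43 on the log2 scale, SE 0.26, edgeR adjusted p = 0.523).

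The other tested subunits of cytochrome c oxidase differed less than Cox8b. Of 17 listed subunits, 12 were tested, and 10 of them had a negative and 2 a positive log2 fold change, with a median of -0.10. In log2 TPM plus 0.1 all 12 were positive, with a median of 0.15 where all tested genes had 0.21. Cox8b (1.02 in edgeR) was the only one with an unadjusted p under 0.05, and the others lay between -0.20 and 0.01. Cox6a2, which did not pass the filter, had a log2 fold change of 2.41 without it (SE 1.49, edgeR adjusted p = 0.568), with 61 of its 73 reads in Knockout 1. Among all tested genes 12.4% had an unadjusted p under 0.05. Of the 12 adipocyte markers, by contrast, 11 were tested, 8 were higher and 3 lower, the median was 0.35, and 6 had an unadjusted p under 0.05, though 0 passed. Cfd, the adipokine adipsin, was at 905 ± 201 CPM (SD, n = 6) against 527 ± 120 CPM (SD, n = 5; log2 fold change 0.78, SE 0.18, edgeR adjusted p = 0.218), and Fabp4, the fatty acid carrier of fat cells, differed by 0.35 on the log2 scale (SE 0.10, edgeR adjusted p = 0.255).

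**Figure D5:**
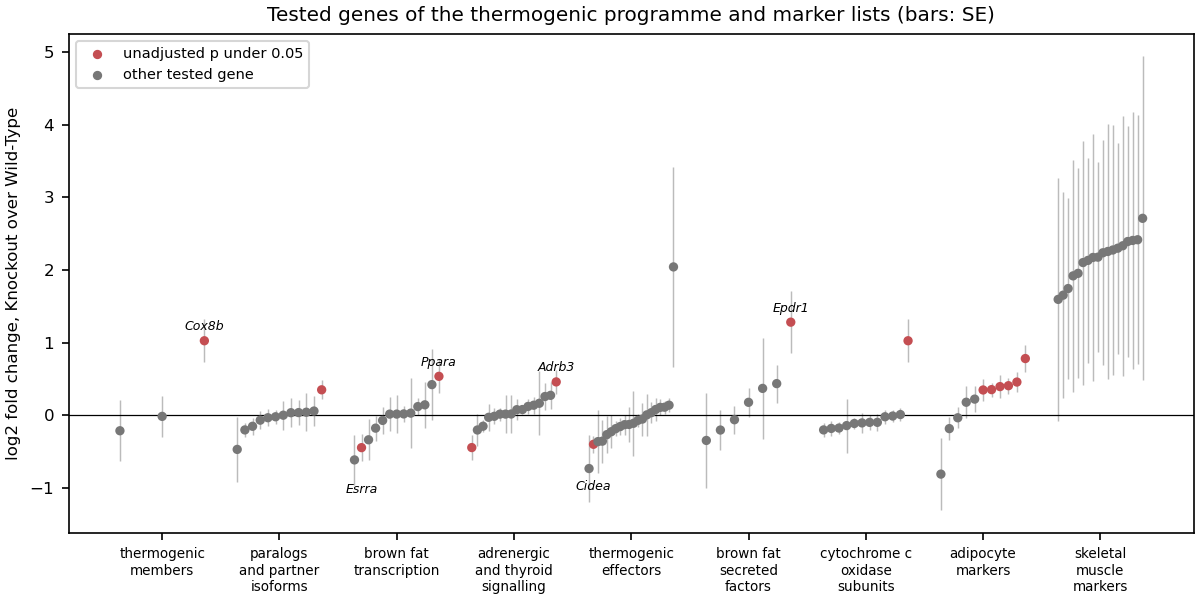
Log2 fold change (Knockout over Wild-Type, vertical axis) of every tested gene of 9 lists, sorted within each list, with SE bars and genes of unadjusted p under 0.05 in red. Cox8b (1.02) stands above the other tested oxidase subunits, 6 of 11 adipocyte markers are red and positive, and the 18 muscle markers are all positive with a median of 2.21, though 6 of the 18 stay higher in mean CPM without Knockout 1.

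In the authors' deposited table of normalised values, Cox8b had a ratio of group means of 2.08, Knockout over Wild-Type, with ranges of 15.3 to 43.3 and 9.59 to 15.6 that overlapped. The same ratio in the authors' deposited table was 0.471 for Ucp1, 1.26 for Cox7a1, 1.27 for Ppargc1a, 0.982 for Prdm16, 1.60 for Dio2 and 0.877 for Elovl3. The directions were those of the CPM values for all 7 members.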

How the data were processed

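RNA was measured in 11 mammary gland libraries, 6 Knockout and 5 Wild-Type, grouped by the titles in the labels. The authors' deposited transcript tables, in the layout of Salmon (version 1.3.0, per the submitters' processing notes, which also name DESeq2 1.28.1 and the build GRCm38.p6), give estimated counts and TPM per transcript, per the file headers. The authors' deposited gene table holds a signal on their own normalised scale. Lengths of 87.3% of the 58204 listed transcripts, and of all 13 member transcripts with reads, are multiples of 3, so lengths here are coding lengths; reads on untranslated regions of such transcripts had no target.

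Estimated counts were summed per gene through GENCODE M21 identifiers (57452 transcripts matched; the 752 others carried 0.195% to 0.265% of reads) and rounded. Member transcripts shared no 31-base word with another gene. edgeR 4.0.16 (R 4.3.3; TMM, filterByExpr with a minimum count of 10, robust quasi-likelihood F test, Benjamini-Hochberg over 12716 genes, threshold 0.05) was the main test. The common biological coefficient of variation was 24.1%. Members that failed the filter were fitted without it. Alternatives were DESeq2 1.42.0, limma 3.58.1 (voom), RLE size factors, no filter, length offsets, a replicate block, a muscle or adipocyte covariate, and leaving out each library. On simulated data, 76% of 100 genes changed 2-fold and 93% of 100 changed 4-fold were called over 12611 genes, with 4 unchanged genes called. The changed genes were drawn from all tested genes at their own levels. Mean CPM of the members ran only from 0.12 (Dio2) to 0.82 (Prdm16), so these rates do not give the power for the members. Single values used exact permutation over 462 splits (smallest p 0.00433) and relations 100000 resamples on log2 CPM with a prior count of 2. TPM had a pseudocount of 0.1 on log scales. Poisson intervals (95%) and the 3-count floor cover counting error only.

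Members and lists were chosen with earlier results of these data known. Genes named are the 7 members; Myh4, Ckm and the next 2 muscle markers by mean CPM; paralogs and partner isoforms with reads; from each other list the genes past the threshold or, with none, the 2 of smallest p; and the 3 tested genes of nearest pattern per tested member. Sequences are from RefSeq (GRCm38.p6). A gene of the adrenergic and thyroid list that the naming rule would include is not reported here.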

Additional observations from a re-analysis of the deposited data

Results flagged for a closer look

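The sets of values looked at were 22, the CPM of the 7 members and the summed marker levels in each genotype. In 3 of them a library stood far from the rest of its group by Dixon's criterion, taken on CPM without logs. For normally spread values chance gives about 1 in 20, or 1.1 sets. The muscle sum varied 914-fold on this scale, so the 3 sets cannot be weighed against that number. Ucp1 was at 1.09 CPM in Knockout 2, while the other Knockout libraries lay between 0.0330 and 0.110 CPM. The skeletal muscle markers summed to 2776 CPM in Knockout 1, with 3.04 to 420 CPM in the other Knockout libraries. The B cell markers summed to 12.8 CPM in Knockout 1, with 0.808 to 2.95 CPM in the others. The Wild-Type values of Ucp1 were not marked out in this way because 2 of the 5 libraries were high.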

How the results depend on the processing

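The count of members called was 0 under every one of the 20 alternatives. Over all genes, the 7 calls became 146 with DESeq2, 0 with the replicate block, 11 with the muscle covariate and 1 with the adipocyte covariate, and 0 to 28 when 1 library was left out; the cause was not tested. The log2 fold change of Cox8b stayed between 0.76 and 1.15. Replicate numbers did not pair the libraries (correlations of same-numbered deviations -0.22 to 0.19; only number 3 correlated best with its own). With the replicate block, Cox8b was 0.95, and the sign changed for Prdm16 (0.12), Elovl3 (0.026) and Cox7a1 (-0.027). With the adipocyte covariate the sign changed for Prdm16 (0.13), Elovl3 (0.68) and Ucp1 (1.96). Leaving out 1 library gave -0.17 to 0.12 for Prdm16, -0.42 to 0.12 for Elovl3 and -0.023 to 0.49 for Cox7a1. It gave -0.71 to 1.25 for the log2 difference in muscle level and 0.25 to 0.36 for that in adipocyte level, with exact permutation p of 0.0159 to 0.0762. Correlations with the muscle level, leaving out 1 library, were -0.22 to 0.43 for Cox8b, 0.35 to 0.65 for Cox7a1, -0.010 to 0.23 for Ppargc1a, -0.13 to 0.19 for Prdm16, 0.43 to 0.77 for Dio2 and -0.26 to 0.10 for Elovl3. The sign changed for Prdm16 with Ckm alone (-0.029) and for Elovl3 in log2 TPM (0.068). Correlations with the adipocyte level, leaving out 1 library, were 0.43 to 0.73 for Cox8b and -0.26 to 0.11 for Cox7a1, and in log2 TPM 0.86 and 0.38.

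Depth limits 4 of the 7 members: Dio2 had under 10 reads in 11 libraries, Ucp1 and Ppargc1a in 8 and Cox7a1 in 7. Reads were counted on coding sequence, and the short coding sequences of Cox8b and Cox7a1 make their TPM coarse.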
